A study of Mus musculus with 16 samples.

Results

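Azurophil granules, also called primary granules, are the first granules that a developing neutrophil makes. The 6 genes described here code for proteins of these granules or mark the cells that make them: Mpo, Elane, Prtn3, Ctsg, Ms4a3 and Srgn. They were picked by name as primary granule genes, as a sign of immature cell release, by someone who knew earlier results of these data, and all 6 were found among the 49315 genes of the files. Cells sorted from mice for Ly6G, CD11b and CD45.2 served as neutrophils, and their RNA was read in 8 groups of 3 libraries. The groups were WT or αD KO male mice of 8 to 12 weeks, blood or lung, and no surgery (0h) or 12 hours after cecal ligation and puncture (CLP), which lets gut bacteria into the abdomen. αD KO mice, from the Jackson Laboratory, carry a knockout of CD11d, the integrin subunit encoded by Itgad, and the labels name no transgene, Cre or pooling of animals. Each group has 2 labelled samples, and sample 1 has 2 count files, called libraries 1a and 1b here, beside library 2. Nothing in the labels says that 1a and 1b came from separate mice, so p-values measure the spread between libraries, which may be partly technical. The paper calls its RNA sequencing data triplicates and does not say whether these were separate mice.

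Promyelocytes in the bone marrow transcribe the azurophil proteases and myeloperoxidase at very high levels and pack them into granules. Transcription stops as the cell becomes a myelocyte, which makes the specific granule proteins instead, so a mature neutrophil carries the azurophil proteins but little of their RNA. Mpo makes hypochlorous acid from hydrogen peroxide. Elane (neutrophil elastase), Prtn3 (proteinase 3) and Ctsg (cathepsin G) are serine proteases. Ms4a3 is a membrane protein that marks granulocyte and monocyte progenitors. Srgn (serglycin) is the proteoglycan that holds the proteases in the granule, and many blood cell types go on transcribing it after they mature.

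The promoters of 4 members are shown because they let a reader compare the genes that were scarce in these cells with Srgn, which was abundant. Each runs from 250 bases before to 50 bases after a RefSeq start on GRCm38.p6, read 5′ to 3′ on the strand of the gene. Capitals mark AGGAAGT (a core bound by ETS factors such as PU.1) or AACGG (a core bound by MYB) on either strand.

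Mpo, chr11:87793534-87793833, plus strand: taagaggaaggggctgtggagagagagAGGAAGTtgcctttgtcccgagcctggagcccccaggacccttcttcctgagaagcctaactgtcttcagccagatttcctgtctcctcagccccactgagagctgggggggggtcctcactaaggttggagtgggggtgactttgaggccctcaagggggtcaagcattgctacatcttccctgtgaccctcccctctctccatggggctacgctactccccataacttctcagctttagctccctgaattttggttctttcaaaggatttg

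Elane, chr10:79886062-79886361, plus strand: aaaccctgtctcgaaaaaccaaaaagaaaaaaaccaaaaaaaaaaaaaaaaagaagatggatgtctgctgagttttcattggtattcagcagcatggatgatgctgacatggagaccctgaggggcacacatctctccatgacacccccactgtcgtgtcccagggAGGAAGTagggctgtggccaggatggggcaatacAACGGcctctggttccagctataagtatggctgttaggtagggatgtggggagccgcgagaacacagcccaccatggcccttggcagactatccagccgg

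Prtn3, chr10:79879417-79879716, plus strand: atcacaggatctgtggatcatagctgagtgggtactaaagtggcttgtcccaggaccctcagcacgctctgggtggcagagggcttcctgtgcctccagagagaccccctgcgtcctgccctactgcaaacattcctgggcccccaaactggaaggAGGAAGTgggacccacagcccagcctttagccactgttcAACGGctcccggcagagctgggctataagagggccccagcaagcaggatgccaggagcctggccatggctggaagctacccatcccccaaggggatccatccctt

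Srgn, start nearer the gene's end, chr10:62507708-62508007, minus strand: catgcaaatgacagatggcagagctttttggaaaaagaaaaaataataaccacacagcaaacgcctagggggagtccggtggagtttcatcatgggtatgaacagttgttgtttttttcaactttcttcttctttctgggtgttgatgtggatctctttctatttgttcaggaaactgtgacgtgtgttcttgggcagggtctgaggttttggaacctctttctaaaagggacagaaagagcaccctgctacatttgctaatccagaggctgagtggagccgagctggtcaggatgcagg

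Srgn, start farther upstream, chr10:62527396-62527695, minus strand: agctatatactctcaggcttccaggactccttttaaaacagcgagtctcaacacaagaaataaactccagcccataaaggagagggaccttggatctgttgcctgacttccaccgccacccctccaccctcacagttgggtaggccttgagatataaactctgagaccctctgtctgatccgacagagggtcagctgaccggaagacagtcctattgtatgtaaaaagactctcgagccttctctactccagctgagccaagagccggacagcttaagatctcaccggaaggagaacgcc

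The motifs are cores of factors known from myeloid promoters, and a match is a description of letters. AGGAAGT occurred in 4 of the 7 member promoters (Mpo, Elane, Prtn3 and Ctsg) and in 9.35% of the 32851 promoters of the table. AACGG occurred in 2 of 7 (Elane and Prtn3), beside 17.4% of all promoters. TTGCNNAA, a core bound by C/EBP factors, occurred only in that of Ms4a3 among the 7 and in 10.8% of all promoters. TGTGGT, bound by RUNX factors, occurred in those of Ctsg and of the Srgn start nearer the gene's end, beside 16.8% of all. TATAAA was found in that of Ctsg and of the other Srgn start, beside 13.6% of all. Both strands were searched, and no match in these promoters overlapped that of another motif.

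On GRCm38 the files place Mpo at chr11:87793581-87804413, where an antisense gene, Gm11505, lies inside it. Prtn3 (chr10:79874476-79883174) and Elane (chr10:79886312-79888216) stand 3137 bases apart on the same strand. The RefSeq start of Prtn3 used above lies inside the span of Prtn3. The first part of the Prtn3 model overlaps Plppr3 on the opposite strand, and whether counting used strand is not given in the sources used here, so reads there cannot be told apart. Ctsg lies at chr14:56099881-56102574, Ms4a3 at chr19:11629496-11640851 and Srgn at chr10:62493833-62527451, all on the minus strand and without overlapping genes.

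Several libraries stood apart. Total counts ran from 5753476 to 29984954 per library. In the 8 libraries 1b the 1405 olfactory receptor genes, which neutrophils are not known to use, summed to 0.07 to 1.10 CPM per kilobase of exon (CPM are counts relative to library size, scaled with TMM factors), beside 0.006 to 0.09 in the other 16. Between 51.7% and 90.0% of these genes had a count in a library 1b. Itgad went against its label: it stood at 0.05 to 4.08 CPM in WT libraries and at 12.6 to 96.1 CPM in those labelled αD KO, so αD KO below means the libraries labelled so. On a scale from the mean of WT lung at 0h (0) to that of WT lung at 12 hours (1), over the 1340 DEGs between them (members left out), αD KO lung 0h library 2 stood at 1.02. The αD KO lung libraries 1a and 2 labelled 12 hours stood at 0.10 and 0.18. The fits of Srgn and Prtn3 that use these 3 libraries are given with and without them. The mature neutrophil list summed to 43990 to 174700 CPM in every library. Summed markers were 0.06 to 25.3 CPM for mast cells and basophils, 4.26 to 628.8 CPM for platelets and 138.5 to 1626 CPM for monocytes and macrophages. Erythroid markers summed to 23.5 to 8842 CPM and lung structural markers to 0.40 to 839 CPM. In bulk RNA, fewer cells of a type and less RNA per cell cannot be told apart.

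Srgn was abundant and the other 5 members were scarce in every library. Per kilobase of exon, Srgn was the highest member in 24 of 24 libraries, with a median of 880.2 CPM per kilobase (478.4 to 3795), and it ranked between 18 and 147 among all genes by CPM. Prtn3 came next in 18 libraries, with a median of 0.90 CPM per kilobase, and the ratio of Srgn to Prtn3 within a library ran from 85.3 to 26910. The medians of Ms4a3 (0.22), Elane (0.15), Mpo (0.14) and Ctsg (0.06 CPM per kilobase) were lower, and their ranges overlapped.

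In counts, the whole series held 1135622 Srgn reads, 1019 of Prtn3, 222 of Ms4a3, 218 of Mpo, 79 of Elane and 48 of Ctsg. Mpo was at 0 in 4 libraries, Elane in 8, Ctsg in 9 and Ms4a3 in 2. A count of 0 allows up to 3 counts, which is 0.11 to 0.27 CPM in the 11 libraries where a member was at 0, and this limit covers counting error only. Mpo, Elane, Ctsg and Ms4a3 were thus near the limit of detection, and Elane and Ctsg had too few counts to pass the edgeR filter in any comparison between 2 groups.

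None of the members passed the test in any of 12 comparisons between 2 groups. A gene was called (a DEG) when the two-sided quasi-likelihood F test of edgeR gave a Benjamini-Hochberg p below 0.05 over all genes and the log2 fold change was beyond 1 in either direction. Of 36 tests of a member that passed the filter on low counts, 0 were called by edgeR and 3 had an unadjusted p under 0.05, while DESeq2 called 2. The share of all tested genes called was 13.5% for 12 hours against 0h in WT blood, 9.02% in WT lung, 8.75% in αD KO blood and 0% in αD KO lung (0 genes by edgeR and by DESeq2, 72 with an unadjusted p under 0.05 by edgeR). Between αD KO and WT it was 0.0115% in blood at 0h and 0% in the other 3 comparisons. In those 3, edgeR gave 505 (blood at 12 hours), 340 (lung at 0h) and 1390 genes (lung at 12 hours) an unadjusted p under 0.05, and DESeq2 called 14, 7 and 153. Between lung and blood it was 0.0442% in WT at 12 hours, 0.0548% in αD KO at 12 hours and 0% in both at 0h, where 406 (WT) and 553 genes (αD KO) had an unadjusted p under 0.05 by edgeR and DESeq2 called 44 and 114. Srgn and Prtn3 passed the filter in all 12 comparisons, Mpo and Ms4a3 in 6 each, and Elane and Ctsg in none.

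**Figure D1:**
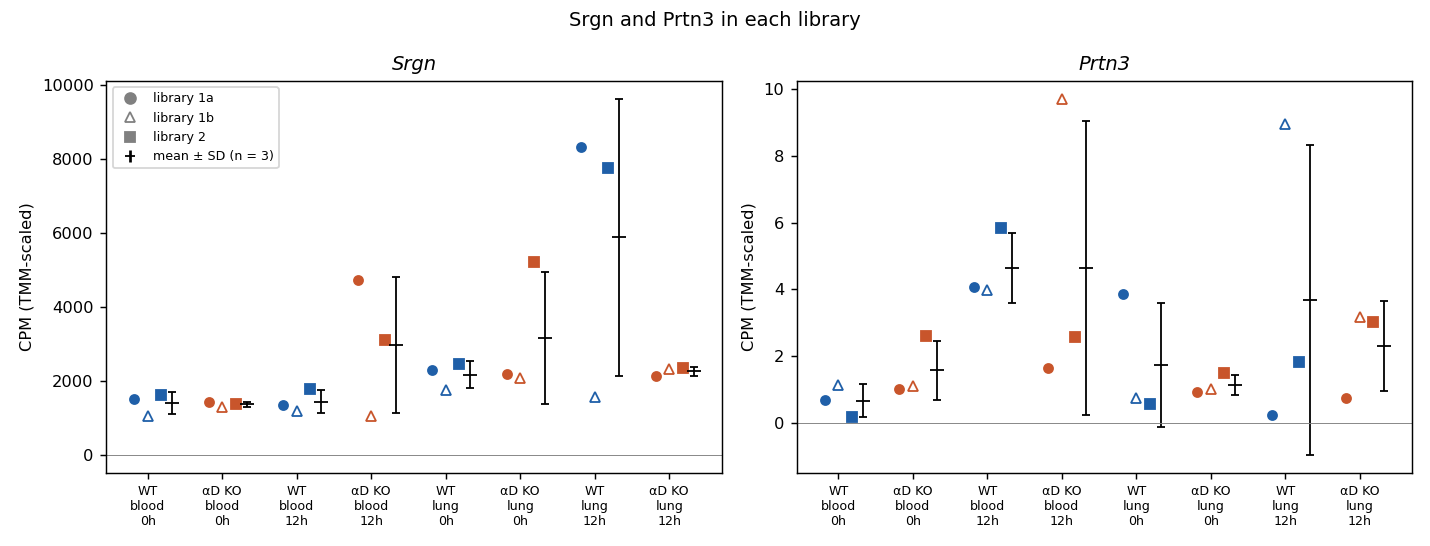
Levels of Srgn (left) and Prtn3 (right) in TMM-scaled CPM on linear axes, with 1 point per library (WT blue, αD KO orange, library 1b open) and the mean ± SD of the 3 libraries of a group in black. In WT blood the Prtn3 points at 12 hours (3.98 to 5.84 CPM) lie above those at 0h (0.16 to 1.14 CPM), while the 2 WT lung points at 7760 and 8334 CPM stand above every other Srgn value.

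Prtn3 was the member with the clearest difference after CLP, in WT blood. It was at 0.68, 1.14 and 0.16 CPM at 0h and at 4.07, 3.98 and 5.84 CPM at 12 hours (libraries 1a, 1b and 2 in this order here and below). The means were 0.66 ± 0.49 and 4.63 ± 1.05 CPM (SD, n = 3). All 3 libraries at 12 hours were above all 3 at 0h, as they were for 21.7% of the genes tested. The counts behind these values were 4 to 19 per library at 0h and 73 to 96 at 12 hours. Its log2 fold change was 2.81 ± 0.78 (SE), and the adjusted p of 0.0524 by edgeR missed the threshold. DESeq2 called it (log2 fold change 2.78, adjusted p = 0.00791), as it did 21.2% of the genes with an adjusted p. With the library number as a replicate block, whose numbers deviated together in this comparison, it was also called (3.01, edgeR adjusted p = 0.0406, share of genes called 18.4%). It was called as well without WT blood 0h library 1b (3.36, edgeR adjusted p = 0.0204, share of genes called 18.4%), while leaving out any other library gave edgeR adjusted p-values of 0.144 to 0.407. With the files of sample 1 summed or with libraries 1a and 2 alone it was called too (3.43 and 3.44), at shares of genes called of 15.9% and 23.1%.

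In αD KO blood, Prtn3 was at 1.01, 1.11 and 2.60 CPM at 0h. At 12 hours it was at 1.65, 9.71 and 2.58 CPM, so the groups overlapped and library 1b was the highest. This gave a log2 fold change of 1.499 ± 0.80 (SE, edgeR adjusted p = 0.266). It was 0.44 without library 1b at 12 hours, 2.13 without library 2 at 0h and 0.20 with libraries 1a and 2 alone. The difference between this change and that in WT blood was -1.31 ± 1.10 (SE, edgeR adjusted p = 1.00), so the changes in the 2 genotypes were not shown to differ. With each library left out in turn this difference ran from -2.40 to -0.80, and its lowest value over all alternatives was -3.2.

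In WT lung, Prtn3 was at 3.87, 0.75 and 0.56 CPM at 0h. Its values at 12 hours were 0.24, 8.95 and 1.83 CPM, the widest spread of any group. The log2 fold change of 1.09 ± 1.22 (SE, edgeR adjusted p = 0.628) turned to -0.87 without WT lung 12 hours library 1b. In αD KO lung it was at 0.93, 1.01 and 1.48 CPM at 0h and at 0.75, 3.16 and 3.02 CPM at 12 hours (log2 fold change 1.04 ± 0.78, SE, edgeR adjusted p = 1.00). Without the 3 αD KO lung libraries that stood apart the log2 fold change was 1.58 ± 1.13 (SE, edgeR adjusted p = 1.00), with 1 library left at 12 hours that is assumed to vary like the others.

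Between genotypes, no difference in Prtn3 stood clear of its error. The log2 fold change of αD KO over WT was 1.25 ± 1.03 in blood at 0h, 0.08 ± 0.66 in blood at 12 hours, -0.62 ± 0.94 in lung at 0h and -0.56 ± 1.13 in lung at 12 hours (SE, edgeR adjusted p 0.925 to 1.00). Between lung and blood it was 1.26 ± 1.11 in WT at 0h, -0.22 ± 1.02 in WT at 12 hours, -0.49 ± 0.86 in αD KO at 0h and -0.99 ± 0.81 in αD KO at 12 hours (SE, edgeR adjusted p 0.476 to 1.00). The value in WT at 0h ran from 0.07 to 2.01 with each library left out in turn. In WT at 12 hours, libraries 1a and 2 alone gave -2.28 (edgeR adjusted p = 0.0479), with 28.2% of all genes then called. Without the libraries that stood apart, the lung values of αD KO over WT were -0.93 at 0h and -0.17 at 12 hours, and those of αD KO lung over blood -0.61 and -0.84. The change of Prtn3 at 12 hours differed between lung and blood by -1.92 ± 1.62 in WT and -0.73 ± 1.11 in αD KO, and between αD KO and WT lung by 0.06 ± 1.48 (SE, edgeR adjusted p 0.862 to 1.00). The latter 2 were -0.18 and 0.56 without the libraries that stood apart. The value in WT ran from -3.57 to -0.38 with each library left out in turn.

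Srgn ranged more widely than any other member in absolute level, and most in WT lung at 12 hours. In WT lung it was at 2289, 1760 and 2460 CPM at 0h. At 12 hours it was at 8334, 1575 and 7760 CPM, so libraries 1a and 2 were above every library at 0h and library 1b was below them all. The means were 2170 ± 365 and 5890 ± 3748 CPM (SD, n = 3). The log2 fold change of 1.41 ± 0.62 (SE) did not pass (edgeR adjusted p = 0.194). Without WT lung 12 hours library 1b it was 1.75 and was called (edgeR adjusted p = 0.00442), as were 25.3% of all genes. With the files of sample 1 summed (1.42) or libraries 1a and 2 alone (1.64) it was called as well, at shares of 12.3% and 37.2%. Library 1b stood at 0.70 on the scale between WT lung at 0h and 12 hours, and libraries 1a and 2 at 1.19 and 1.05.

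In αD KO lung, Srgn was at 2190, 2076 and 5228 CPM at 0h and at 2128, 2315 and 2348 CPM at 12 hours. The single high value belonged to library 2 at 0h, the library that stood beside WT lung at 12 hours on the scale above. The log2 fold change was -0.47 ± 0.52 (SE, edgeR adjusted p = 1.00), -0.01 without the 3 libraries that stood apart, and 0.18 without αD KO lung 0h library 2 alone. Over the 12 lung libraries, the 3 with the highest positions on that scale (1.02 to 1.19) held 5228 to 8334 CPM of Srgn and the other 9 held 1575 to 2460 CPM. The split between them was set at 0.9. Among the 9 was αD KO lung 12 hours library 1b, which stood at 0.849 and held 2315 CPM. In blood at 12 hours, positions of 0.82 to 0.98 went with 1051 to 4729 CPM.

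In blood, Srgn was at 1515, 1065 and 1632 CPM in WT at 0h and at 1352, 1184 and 1790 CPM at 12 hours. The groups overlapped, with a log2 fold change of -0.02 ± 0.37 (SE, edgeR adjusted p = 0.984). In αD KO blood it was at 1444, 1287 and 1365 CPM at 0h. Its values at 12 hours were 4729, 1051 and 3110 CPM, with library 1b again the lowest and below every library at 0h. Its fitted difference of 1.06 ± 0.50 on the log2 scale did not pass (SE, edgeR adjusted p = 0.207). It was 1.53 without αD KO blood 12 hours library 1b and was then called (edgeR adjusted p = 0.0245), as were 8.74% of all genes, and it was 0.61 without library 1a at 12 hours. The files of sample 1 summed (1.31) and libraries 1a and 2 alone (1.46) gave calls too, at shares of 3.84% and 11%. The change in αD KO blood exceeded that in WT blood by 1.24 ± 0.76 (SE, edgeR adjusted p = 1.00), a difference that was not called. It ran from 0.59 to 1.57 with each library left out in turn.

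**Figure D2:**
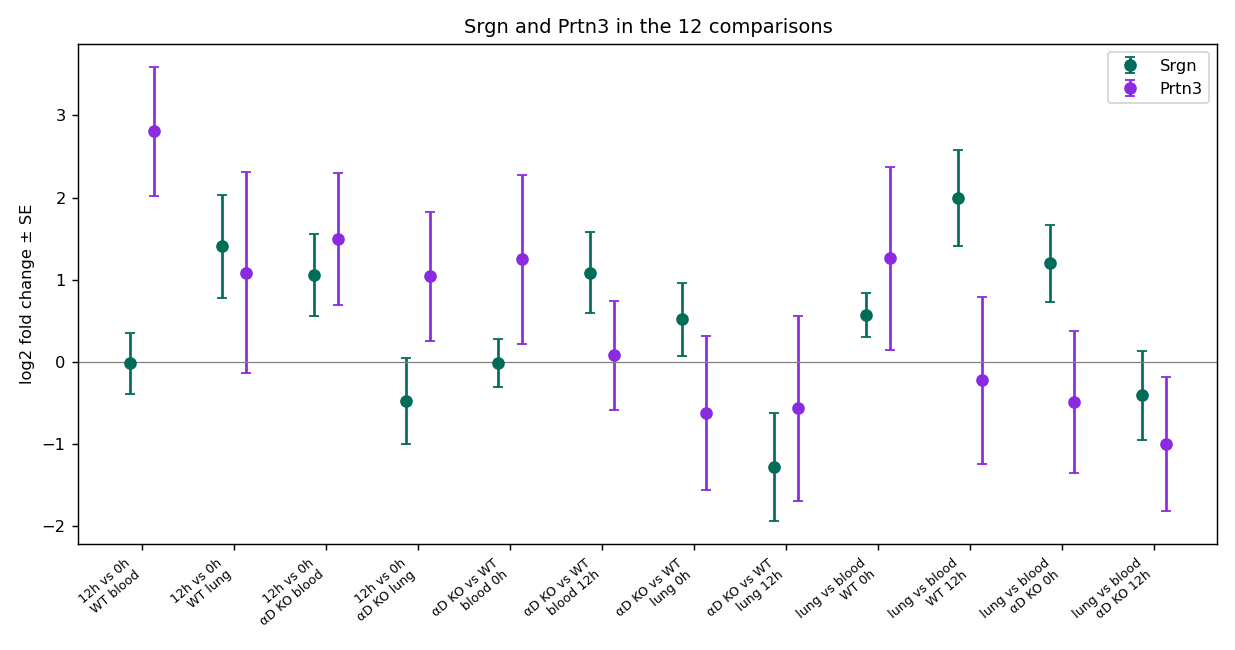
Fitted log2 fold changes ± SE of Srgn (green) and Prtn3 (purple) in the 12 comparisons between 2 groups of 3 libraries, first group over second. The highest values are 2.81 for Prtn3 in WT blood (12 hours over 0h) and 1.99 for Srgn in WT at 12 hours (lung over blood), and none passed the edgeR threshold.

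Between genotypes, the difference in Srgn in blood at 0h was far within its error (log2 fold change -0.01 ± 0.30, SE, edgeR adjusted p = 1.00). At 12 hours it was 1.09 ± 0.49 in blood (SE, edgeR adjusted p = 0.962), and all 3 values of WT lay between library 1b and library 2 of αD KO. With each library left out in turn it ran from 0.58 to 1.46. In lung it was 0.52 ± 0.45 at 0h (SE, edgeR adjusted p = 0.983), which became -0.07 without αD KO lung 0h library 2. At 12 hours in lung it was -1.28 ± 0.66 (SE, edgeR adjusted p = 0.629) and -1.40 ± 1.43 (SE, edgeR adjusted p = 1.00) with αD KO library 1b alone. Libraries 1a and 2 alone gave -1.79 (edgeR adjusted p = 0.00797, share of genes called 30.1%), but the αD KO libraries of that fit are the pair that stood near 0h on the scale.

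Srgn was higher in lung than in blood in 3 of the 4 settings by its mean, and edgeR called no difference with all 3 libraries a group. In WT at 0h, lung was higher than blood in every library (log2 fold change 0.57 ± 0.27, SE, edgeR adjusted p = 1.00), as it was for 4.03% of the genes tested. In αD KO at 0h lung was also higher in every library (1.20 ± 0.47, SE, edgeR adjusted p = 1.00, share of genes 3.61%), and the value was 0.71 without lung library 2. In WT at 12 hours the log2 fold change was 1.99 ± 0.58 (SE, edgeR adjusted p = 0.165). DESeq2 called it (2.07, adjusted p = 0.00919, share of genes called 7.09%), and edgeR did without WT lung 12 hours library 1b (2.41, edgeR adjusted p = 0.00358, share of genes called 20.2%). The files of sample 1 summed (2.02) and libraries 1a and 2 alone (2.30) gave calls as well, at shares of 4.47% and 28.2%. In αD KO at 12 hours lung had the lower mean (-0.41 ± 0.55, SE, edgeR adjusted p = 0.668), and the value was -0.72 with lung library 1b alone.

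Whether the change at 12 hours itself differed between groups was tested as an interaction. For Srgn in lung the change in αD KO was lower than in WT (difference of log2 fold changes -1.87 ± 0.86, SE, edgeR adjusted p = 0.481), and the difference was -1.35 ± 1.17 without the libraries that stood apart (SE, edgeR adjusted p = 1.00). In WT the change in lung exceeded that in blood by 1.34 ± 0.83 (SE, edgeR adjusted p = 0.876), beside a median difference of 0.56 over all genes. Libraries 1a and 2 alone called it (1.73, edgeR adjusted p = 0.0265, share of genes called 7.41%). In αD KO the change in lung minus that in blood was -1.85 ± 0.81 (SE, edgeR adjusted p = 0.447), and -1.41 without the libraries that stood apart. Of 17 interaction tests of members edgeR called 0 (0% of all genes in each of the 4), 1 had an unadjusted p under 0.05, and DESeq2 called 0. The groups ordered by mean Srgn were WT lung at 12 hours, αD KO lung at 0h, αD KO blood at 12 hours (2963 ± 1843 CPM), αD KO lung at 12 hours, WT lung at 0h, WT blood at 12 hours, WT blood at 0h (1404 ± 300 CPM) and αD KO blood at 0h (1365 ± 78.6 CPM). The values of every pair of neighbours in this order overlapped.

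Srgn is made by mast cells, basophils and platelets too. Summed markers of mast cells and basophils (6 genes) were 0.81 to 9.36 CPM in WT lung at 0h and 2.87 to 12.8 CPM at 12 hours. Of these, Mcpt8 was at 0 in 11 of all 24 libraries, Fcer1a in 10 and Ms4a2 in 6. Prss34 was at 0 in 4, Cpa3 in 3 and Gata2 in 1. In αD KO blood, summed platelet markers (5 genes) were 525.5, 27.9 and 628.8 CPM at 0h and 31.4, 4.95 and 37.6 CPM at 12 hours. Srgn in the same libraries was at 1444, 1287 and 1365 CPM at 0h and at 4729, 1051 and 3110 CPM at 12 hours. Lung structural markers (6 genes) summed to 39.3 to 156.7 CPM in WT lung and 2.65 to 207.5 CPM in WT blood at 0h, and to 52.8 to 404.1 and 0.99 to 1.76 CPM at 12 hours. In αD KO they summed to 120.2 to 839.1 CPM in lung and 0.40 to 4.08 CPM in blood at 0h, and to 44.5 to 177.6 and 0.80 to 1.80 CPM at 12 hours. The part of these cells in the Srgn values was not tested.

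**Figure D3:**
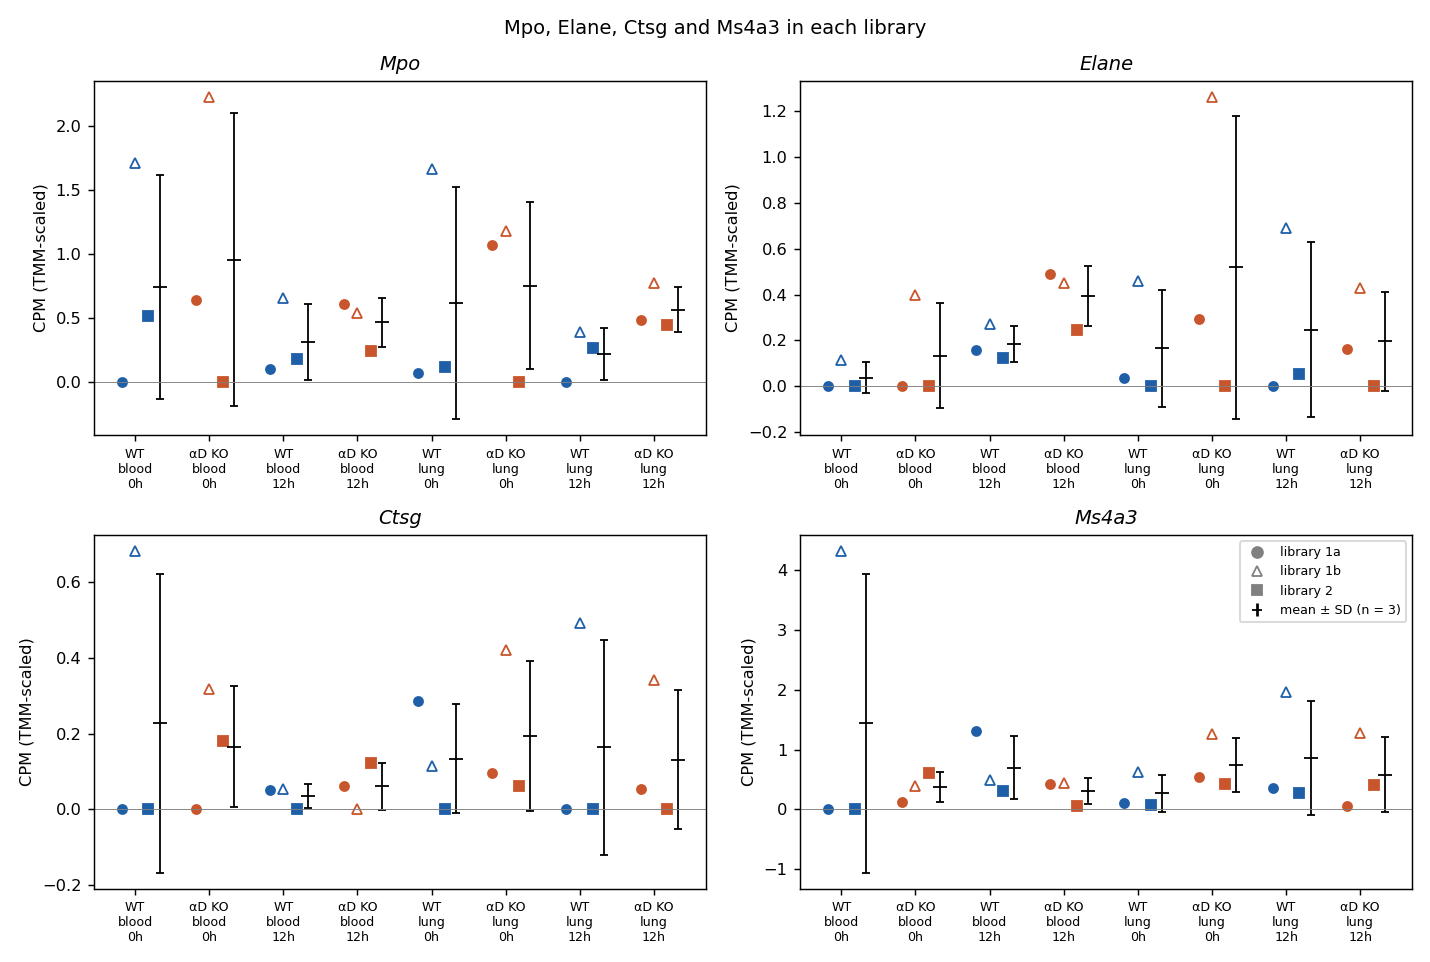
Levels of Mpo, Elane, Ctsg and Ms4a3 in TMM-scaled CPM on linear axes, with 1 point per library (WT blue, αD KO orange, library 1b open) and the mean ± SD of 3 libraries in black. Library 1b, the open triangle, is the highest of its group in 7 of 8 groups for Mpo and Elane and in 6 of 8 for Ctsg and Ms4a3.

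Mpo counts were 0, 15 and 13 in WT blood at 0h and 2, 12 and 3 at 12 hours. In αD KO blood they were 16, 28 and 0 at 0h and 10, 6 and 4 at 12 hours. Both pairs of groups overlapped. In WT lung Mpo had 2, 29 and 3 counts at 0h and 0, 4 and 5 at 12 hours, and in αD KO lung 22, 14 and 0 at 0h and 9, 9 and 12 at 12 hours. Group means ran from 0.22 ± 0.20 CPM (WT lung at 12 hours) to 0.96 ± 1.14 CPM (αD KO blood at 0h, SD, n = 3). Where it could be tested its adjusted p was 0.649 to 1.00 by edgeR. At 12 hours in lung, all 3 αD KO libraries (0.45 to 0.77 CPM) were above all 3 WT libraries (0 to 0.39 CPM), as they were for 5.09% of the genes tested, but Mpo was under the edgeR filter there, and no alternative that gave it a value called it. Libraries 1a and 2 of αD KO, which stood near 0h on the scale above, were at 0.48 and 0.45 CPM, and library 1b alone was at 0.77 CPM.

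Elane counts in WT blood were 0, 1 and 0 at 0h and 3, 5 and 2 at 12 hours. All 3 libraries at 12 hours were higher, as were 21.7% of the genes tested, and the gene was under the edgeR filter. No alternative that gave Elane a value called it. In αD KO blood Elane had 0, 5 and 0 counts at 0h and 8, 5 and 4 at 12 hours, and these overlapped by level. In WT lung it had 1, 8 and 0 counts at 0h and 0, 7 and 1 at 12 hours. In αD KO lung it had 6, 15 and 0 counts at 0h and 3, 5 and 0 at 12 hours. All reads of Elane in blood at 0h, 1 in WT and 5 in αD KO, came from libraries 1b.

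Ctsg never reached 1 CPM in a library, with counts of 0 to 8. Its group means were 0.04 to 0.23 CPM, it was at 0 in at least 1 library of 7 of the 8 groups, and the groups overlapped in each of the 12 comparisons. Ms4a3 had 0 to 38 counts per library. Its highest value, 4.33 CPM in WT blood at 0h, belonged to library 1b, beside 0 in libraries 1a and 2 of that group. At 12 hours in WT blood Ms4a3 was at 1.31, 0.49 and 0.30 CPM, and its adjusted p was 0.761 or more by edgeR wherever it could be tested.

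These 4 genes were higher by their medians in libraries 1b, as the olfactory receptor genes were. In libraries 1b their median was 0.97 CPM for Mpo, 0.44 for Elane, 0.33 for Ctsg and 0.95 for Ms4a3. In the other 16 libraries it was 0.21, 0.02, 0.03 and 0.29 CPM. Pooled per kilobase, the 4 genes stood at 0.86 to 2.83 times the olfactory receptor level in libraries 1b (median 1.57) and at 0 to 33.7 times in libraries 1a and 2 (median 4.10). They were above it in 6 of 8 libraries 1b and in 15 of the 16 others. Prtn3 was above it in 7 of 8 and 16 of 16, and Srgn in all 24. The olfactory receptor comparison was chosen after the libraries had been looked at, and its part in the group values was not tested.

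**Figure D4:**
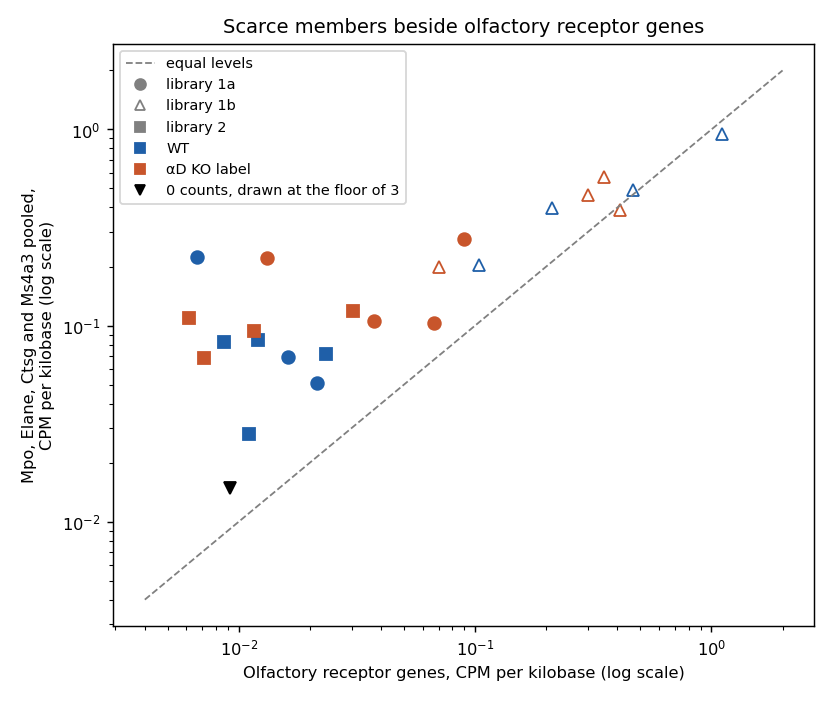
Pooled level of Mpo, Elane, Ctsg and Ms4a3 against that of 1405 olfactory receptor genes, both in CPM per kilobase on log axes, with 1 point per library and a dashed line at equal levels. The 8 open triangles (libraries 1b) lie near the line, at 0.86 to 2.83 times it, and the library with 0 counts is drawn at the level of 3 counts.

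Genes of the next stage of granule formation were measured in the same libraries. Of 14 specific granule and myelocyte genes, 7 rose at 12 hours in WT blood, 11 in WT lung and 3 in αD KO blood, and 0 fell, beside 13.5%, 9.02% and 8.75% of all genes called in either direction. Their median log2 fold changes were 3.86, 4.25 and 1.85, beside -0.15, 0.03 and -0.14 over all genes tested. Olfm4 (olfactomedin 4, a specific granule glycoprotein) rose from 8.55 ± 6.22 to 379.5 ± 86.5 CPM in WT blood (SD, n = 3, log2 fold change 5.39 ± 0.63, SE, edgeR adjusted p = 0.00345). Ngp (neutrophilic granule protein) rose in WT lung from 416 ± 319 to 24500 ± 9180 CPM (5.85 ± 1.05, SE, edgeR adjusted p = 0.0178). Summed over the list, WT blood held 2644 to 15070 CPM at 0h and 110700 to 211600 CPM at 12 hours. Mpo, Elane, Prtn3, Ctsg and Ms4a3 together held 0.68, 7.97 and 0.68 CPM at 0h in the same libraries and 5.69, 5.45 and 6.45 CPM at 12 hours, so libraries 1a and 2 at 12 hours were above those at 0h and library 1b was not. DESeq2 called 11, 13 and 6 of the 14 higher, beside 21.2%, 18.7% and 16.7% of all genes, and libraries 1a and 2 alone 9, 12 and 9, beside 23.1%, 37.2% and 11%, and none lower. In αD KO lung 0 of 14 were called by edgeR or DESeq2 (0 with an unadjusted p under 0.05), with a median log2 fold change of -0.06. Without the 3 libraries that stood apart, which leaves 1 library at 12 hours that is assumed to vary like the others, 2 of the 14 were called higher there, beside 1.41% of all genes called. Markers of eosinophils and B cells went the other way in the same comparisons. Eosinophil markers summed to 40.2 to 65.5 CPM in WT blood at 0h and 5.38 to 7.97 CPM at 12 hours, and B cell markers to 329.4 to 1185 and 43.3 to 196.2 CPM. In WT lung eosinophil markers summed to 63.5 to 119.5 and 2.75 to 21.6 CPM, and in αD KO blood to 40.1 to 60.0 and 2.02 to 3.87 CPM. Most of the sum in WT blood at 0h was Siglecf (51.35 ± 16.62 CPM, and 5.765 ± 0.784 CPM at 12 hours). Epx and Prg2 were at 0 in 10 and 17 of 24 libraries, and 3 of the 5 genes were tested. Siglecf and Ccr3 were called lower in each of these comparisons, beside 13.5%, 9.02% and 8.75% of all genes. In WT lung 1 of the 3 had a higher fitted value. The part of eosinophils and B cells in the list's changes was not tested. The specific granule list summed to 88290 CPM in αD KO lung 0h library 2, where the 5 azurophil members summed to 1.97 CPM.

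**Figure D5:**
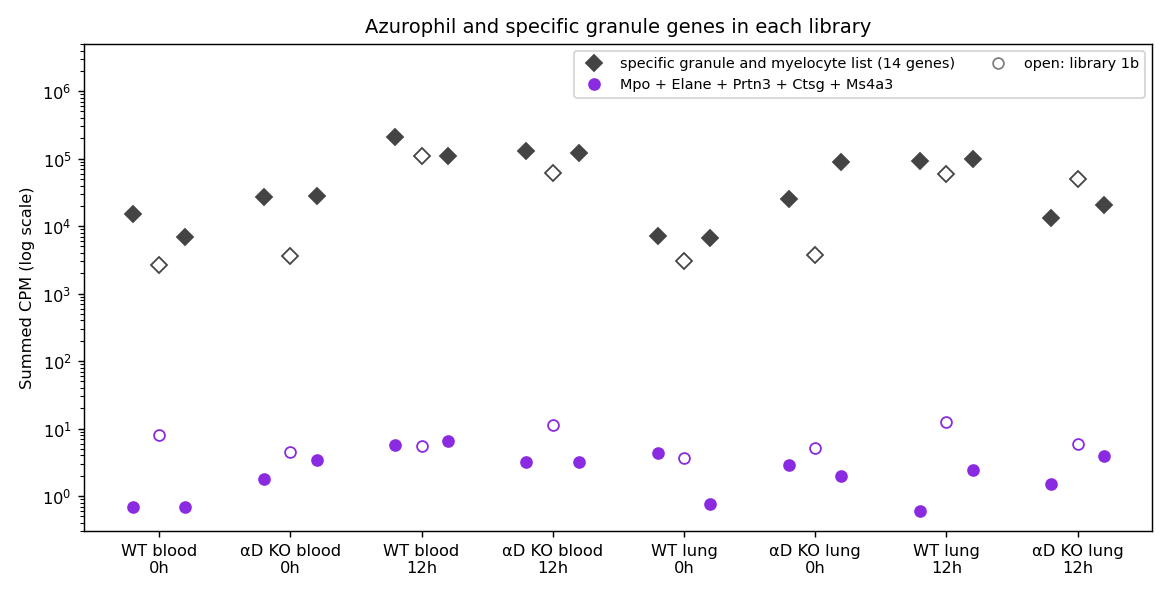
Summed TMM-scaled CPM of 14 specific granule and myelocyte genes (grey diamonds) and of Mpo, Elane, Prtn3, Ctsg and Ms4a3 (purple circles) in each library, on a log axis, with library 1b open. The specific granule sum runs from 2644 to 211600 CPM, while that of the 5 azurophil members lies between 0.61 and 12.5 CPM, and between 0.61 and 6.45 CPM outside libraries 1b.

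Genes for other proteins of the azurophil granule, most of them lysosomal enzymes that cells also use elsewhere, changed in both directions. Of 20 tested in WT blood 4 rose and 4 fell at 12 hours, with a median log2 fold change of -0.78, beside 13.5% of all genes called and a median of -0.15 over them. Gm2a, the GM2 activator, fell from 1349 ± 677 to 94.5 ± 26.7 CPM (-3.89 ± 0.54, SE, edgeR adjusted p = 0.00552). In WT lung 3 of 19 rose and 2 fell, beside 9.02% of all genes called. Ctsc (cathepsin C), the protease that activates elastase, proteinase 3 and cathepsin G, rose there from 19.4 ± 1.33 to 257 ± 9.96 CPM (3.73 ± 0.32, SE, edgeR adjusted p = 0.00383). In αD KO blood 1 of 19 rose and 5 fell, Lyz2 (lysozyme) among them, with a median log2 fold change of -1.12, beside 8.75% of all genes called and a median of -0.14 over them. In αD KO lung 0 of 19 were called by edgeR or DESeq2 (0 with an unadjusted p under 0.05), beside 0% of all genes. Libraries 1a and 2 alone gave 4 higher and 10 lower in WT blood, 7 and 8 in WT lung and 1 and 9 in αD KO blood, beside 23.1%, 37.2% and 11% of all genes. Markers of monocytes and macrophages, which also make Lyz2 and lysosomal enzymes, summed to 511.3 to 1185 CPM in WT blood at 0h and 166.6 to 341.4 CPM at 12 hours, and to 637.1 to 1626 and 138.5 to 211.0 CPM in αD KO blood. In WT lung they summed to 598.0 to 934.8 and 246.7 to 293.5 CPM. Of the 5 tested there, edgeR called 2 lower (Csf1r and Adgre1) and 1 higher, beside 9.02% of all genes. The gene called higher was F13a1, from 1.48 ± 1.755 to 25.04 ± 19.51 CPM (4.18 ± 0.97, SE, edgeR adjusted p = 0.0363). The part of monocytes and macrophages in these changes was not tested.

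Inhibitors of the neutrophil serine proteases were measured in the same fits. Serpinb1a, an inhibitor that neutrophils keep in the cytosol, rose in WT blood from 31.1 ± 28.4 to 1493 ± 592 CPM (5.51 ± 0.82, SE, edgeR adjusted p = 0.00713). In WT lung it rose from 18.6 ± 7.75 to 365 ± 103 CPM (4.28 ± 0.49, SE, edgeR adjusted p = 0.00504). Of the inhibitor genes tested, 2 of 4 rose in WT blood (Serpinb6a was the other), 1 of 5 in WT lung and 0 of 4 in αD KO blood (3 with an unadjusted p under 0.05, 1 called by DESeq2), beside 13.5%, 9.02% and 8.75% of all genes called. With all 3 libraries a group edgeR called none lower. In WT blood, WT lung and αD KO blood DESeq2 called 2 higher and 1 lower, 1 and 0, and 1 and 0. It called 21.2%, 18.7% and 16.7% of all genes there. Libraries 1a and 2 alone called 2 higher and 1 lower, 1 and 0, and 1 and 1, beside 23.1%, 37.2% and 11%.

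Of 17 progenitor and promyelocyte genes tested, 2 rose (Plac8 and Nt5c2) and 1 fell (Flt3) in WT blood at 12 hours, 2 rose in WT lung (Plac8 and Cebpa) and 2 rose (Kit and Nt5c2) and 1 fell (Flt3) in αD KO blood, beside 13.5%, 9.02% and 8.75% of all genes called. DESeq2 called 2 higher and 1 lower, 4 and 0, and 3 and 3 in these comparisons, beside 21.2%, 18.7% and 16.7% of all genes. Libraries 1a and 2 alone gave 2 higher and 3 lower, 6 and 3, and 2 and 6, beside 23.1%, 37.2% and 11%. Of 18 tested in αD KO lung 0 were called by edgeR or DESeq2 (0 with an unadjusted p under 0.05), beside 0% of all genes. The median log2 fold changes in WT blood, WT lung and αD KO blood were -0.50, 0.43 and -0.51. Kit, the stem cell factor receptor, rose from 3.58 ± 0.16 to 13.02 ± 1.035 CPM in αD KO blood (1.81 ± 0.37, SE, edgeR adjusted p = 0.0270). Of the cell division genes edgeR called 0 higher in the 4 comparisons with 0h (libraries 1a and 2 alone called 1 higher in WT lung, beside 37.2% of all genes), while Cdc20 fell in WT blood (-2.78 ± 0.70, SE, edgeR adjusted p = 0.0370) and Mcm6 in αD KO blood (-4.14 ± 1.06, SE, edgeR adjusted p = 0.0493). The median log2 fold change over the cell division genes tested was -1.24 in WT blood and -2.80 in αD KO blood, and DESeq2 called 0 of them higher and 2 and 5 lower, while libraries 1a and 2 alone called 3 lower and 0. The shares of all genes called were 13.5% and 8.75% by edgeR, 21.2% and 16.7% by DESeq2, and 23.1% and 11% with libraries 1a and 2 alone. The cell division list summed to 50.7, 76.8 and 223.2 CPM in αD KO blood at 0h and to 53.0, 28.4 and 55.7 CPM at 12 hours. Library 2 at 0h also had the most T and NK cell markers (231.7 CPM, beside 21.9 and 12.9 CPM) and B cell markers (1221 CPM, beside 522.4 and 353.9 CPM), and their part in the fall was not tested. Of 17 cell division genes 0 were called in αD KO lung by edgeR or DESeq2 (0 with an unadjusted p under 0.05), and by edgeR 0 without the libraries that stood apart.

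Between αD KO and WT, edgeR on all 3 libraries a group called 0 genes of these 5 lists in blood or lung at either time (0 to 9 genes of a list had an unadjusted p under 0.05), and DESeq2 called at most 1 in a list. In lung at 12 hours the calls turned on the libraries used. Libraries 1a and 2 alone, with both αD KO libraries among those that stood apart, called 11 of the specific granule genes lower, 7 azurophil content genes higher and 7 lower, 4 progenitor genes higher and 6 lower, 2 inhibitor genes lower and 3 cell division genes higher and 1 lower, beside 30.1% of all genes. The fit without the libraries that stood apart leaves 1 αD KO library and called 0 of all 22200 genes by edgeR (22 with an unadjusted p under 0.05), so its 0 calls in the 5 lists say little. The difference between the changes at 12 hours in αD KO and WT lung was called for 7 of 14 specific granule genes by DESeq2, all lower, beside 2.69% of all genes, and for 12, all lower, with libraries 1a and 2 alone, beside 13.2%. By edgeR it was called for 0 of 14 with all libraries (11 with an unadjusted p under 0.05). Without the libraries that stood apart edgeR called it for 0 of 14 and for 0 of all genes (105 of all genes with an unadjusted p under 0.05), again with 1 αD KO library left at 12 hours.

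The genes whose log2 CPM went most closely with each member were looked up among 12003 genes over the 24 libraries. For Srgn they were Tiparp (Pearson r = 0.93), Ell2 (0.93) and Ergic1 (0.93), of which Tiparp ran from 70.0 to 2038 CPM. Those for Prtn3 were Ntpcr (0.86), Tmem29 (0.86) and Cdc25b (0.85). For Mpo they were AW822073 (0.89), Slc4a8 (0.89) and Fat3 (0.87), each at 0 in at least 1 library as Mpo was. The libraries share their kind (1a, 1b or 2), depth, tissue and time, so these values describe the 24 libraries only.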

How the data were processed

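RNA from sorted neutrophils was amplified as full-length cDNA and tagmented into libraries. Per the submitters' processing notes, reads were trimmed with Trimmomatic 0.36 and mapped with STAR 2.5.2b to GRCm38, and the authors deposited whole counts of unique reads in exons, not normalized, in 24 files from 16 samples. The counter and its strand setting are not given in the sources used here. Neither the members nor the gene lists are independent of the data: they were chosen with earlier results of these data known.

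Each file was taken as a library (3 per group). Libraries 1a and 1b of the same sample differed by more than counting error (chi-square of 63.5 to 328.5 for each degree of freedom), so they are not the same library deposited again, but this does not show that they are independent replicates, and their sum was an alternative. CPM were scaled with TMM factors over 24 libraries, and the mean and SD are over 3 libraries. Tests used edgeR 4.0.16 (quasi-likelihood F test, TMM, filterByExpr, libraries of the groups compared) in R 4.3.3, with Benjamini-Hochberg adjustment over all genes tested. Calls needed an adjusted p below 0.05 together with a log2 fold change beyond 1 (interactions the adjusted p alone). Exact permutation of 3 against 3 libraries has a smallest p of 0.1, so none is given. The scripts were tested on simulated counts.

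Alternatives were RLE scaling, no filter, at least 10 counts in every library, DESeq2 1.42.0 (Wald test), a fit over all 8 groups, sample 1 summed over its files (2 against 2), leaving out each library in turn, libraries 1a and 2 alone, the library number as a replicate block, the adjusted p alone, and leaving out the αD KO lung libraries that stood apart. Same-numbered libraries were taken as paired where the correlation of their deviations from the group means, across genes, was over 0.1 for each number. This held in 6 of 12 comparisons, with 0.46, 0.59 and 0.12 in WT blood 12 hours against 0h. For the gene lists, the counts by DESeq2 and by sets of libraries were added after the data had been seen. The 6 members were named in every comparison, and of each list at most 3 called genes with the largest change. The genes closest in pattern were named for members with at least 1 CPM in 12 or more libraries, and for Mpo. Promoters come from RefSeq (GRCm38.p6), which listed all 6 members. Columns of other samples were not present.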

Additional observations from a re-analysis of the deposited data

How the results depend on the processing

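Prtn3 had 4 to 96 counts per library in WT blood, and Mpo, Elane, Ctsg and Ms4a3 were called in 0 of the 198, 94, 46 and 194 alternative fits that gave them a value. Srgn was called in 12 of 267 and Prtn3 in 6 of 258. The number of members called in a comparison went from 0 to 1 as follows: in WT blood (12 hours against 0h) with DESeq2, the files of sample 1 summed, libraries 1a and 2 alone and the replicate block (Prtn3, log2 fold change 2.78, 3.43, 3.44 and 3.01), in WT lung and αD KO blood with the files summed or libraries 1a and 2 alone (Srgn, 1.42 and 1.64, and 1.31 and 1.46), in αD KO against WT lung at 12 hours and the WT tissue by time interaction with libraries 1a and 2 alone (Srgn, -1.79 and 1.73), and in WT lung against blood at 12 hours with DESeq2 or the files summed (Srgn, 2.07 and 2.02). In that last comparison libraries 1a and 2 alone called 2 (Srgn 2.30, Prtn3 -2.28). With each library left out in turn the number was 0 to 1 in WT blood, WT lung, αD KO blood and WT lung against blood at 12 hours, and 0 elsewhere. The replicate block changed no other call. The number of genes called, 1975 in WT blood, 1340 in WT lung, 1238 in αD KO blood and 0 in αD KO lung, ranged over the alternatives from 2 to 3201, 0 to 5299, 64 to 2351 and 0 to 326.

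Some directions turned, among them that of Prtn3 in WT lung (1.09). Srgn in WT blood went from -0.02 to 0.10 (no filter), 0.18 (all 8 groups) and 0.09 (files summed), and between αD KO and WT it went to 0.002 with the replicate block in blood at 0h and to -0.068 in lung at 0h without the libraries that stood apart. Prtn3 in αD KO against WT blood at 12 hours went to -0.03 (all 8 groups), -0.35 (files summed), -1.17 (libraries 1a and 2) and -0.34 (replicate block), and in lung at 12 hours to 0.91 (libraries 1a and 2) and 0.28 (replicate block). For Prtn3 libraries 1a and 2 alone gave -1.21 in WT lung and 0.34 in the αD KO tissue by time interaction, and its lung interaction of time and genotype went to -0.048 (RLE) and -0.035 (DESeq2). The cause was not tested.

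Leaving out each library gave, for Srgn, -0.20 to 0.26 in WT blood, -0.80 to 0.18 in αD KO lung, -0.18 to 0.25 and -0.068 to 0.75 for αD KO against WT at 0h in blood and lung, and -0.88 to 0.064 for lung against blood in αD KO at 12 hours. For Prtn3 it gave -0.87 to 2.44 in WT lung, -1.11 to 0.45, -1.005 to 0.93 and -1.13 to 1.25 for αD KO against WT in blood at 12 hours, lung at 0h and lung at 12 hours, and -2.20 to 0.27, -0.68 to 0.12 and -1.42 to 0.043 for lung against blood in WT at 12 hours and in αD KO at 0h and 12 hours. Its interactions ran from -1.31 to 1.73 (time and genotype, lung) and -1.21 to 0.41 (time and tissue, αD KO).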
